A study of Homo sapiens with 3 samples.

Results

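The AP-1 and immediate early factors examined here are 9 genes, FOS, FOSB, FOSL1, FOSL2, JUN, JUNB, JUND, EGR1 and NR4A1, out of 19775 genes that had a probe set of their own on the arrays. They were chosen by gene symbol in the platform annotation, and every probe set assigned to 1 of these genes alone was read, 23 in all. The cells were NCI-H1650, a human cell line established from a lung adenocarcinoma. Those on the first array had received 40 μM colossolactone H, a triterpenoid of fungal origin, for 12 h. Those on the second had received the same dose for 24 h, and the remaining array held control cells. Treated cells came from dishes seeded with 1000000 cells. Neither a vehicle nor a collection time is given for the control, per the labels. Each group was 1 array, so no difference below has a replicate spread, an SD or a p-value, and the number of arrays limits its precision.

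AP-1 is a dimer of basic leucine zipper (bZIP) proteins, usually a JUN protein with a FOS protein or another JUN protein, that binds short DNA sites and drives genes of growth, migration and stress responses. FOS, FOSB, JUN, JUNB, EGR1, a zinc finger factor, and NR4A1, an orphan nuclear receptor, are immediate early genes. Their mRNAs appear within minutes of a growth factor or stress signal, without new protein synthesis, and most decay within hours. FOSL1 and FOSL2 are induced later and last longer, and JUND is made constitutively in most cells. Samples taken many hours after the compound was added read the standing level of these mRNAs rather than a first wave of induction. In RNA of whole cultures, fewer cells that express a gene cannot be told apart from less RNA per cell.

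Promoters of these genes carry sites for the factors that switch them on, so the stretches where such sites lie are shown for the 3 JUN family members, which form a family with unlike values, and for EGR1. Windows run from 250 bases before to 50 bases after the RefSeq transcription start on build GRCh38.p14, written 5′ to 3′ on the gene's own strand. Capitals mark every motif match on either strand, whichever motif it belongs to.
JUN (chr1:58783998-58784297, minus strand): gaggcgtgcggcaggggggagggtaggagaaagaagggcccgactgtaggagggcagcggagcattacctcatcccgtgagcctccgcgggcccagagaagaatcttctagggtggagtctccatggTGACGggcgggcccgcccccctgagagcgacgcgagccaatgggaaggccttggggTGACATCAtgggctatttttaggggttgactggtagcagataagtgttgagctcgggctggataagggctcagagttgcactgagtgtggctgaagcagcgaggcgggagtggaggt
JUNB (chr19:12791236-12791535, plus strand): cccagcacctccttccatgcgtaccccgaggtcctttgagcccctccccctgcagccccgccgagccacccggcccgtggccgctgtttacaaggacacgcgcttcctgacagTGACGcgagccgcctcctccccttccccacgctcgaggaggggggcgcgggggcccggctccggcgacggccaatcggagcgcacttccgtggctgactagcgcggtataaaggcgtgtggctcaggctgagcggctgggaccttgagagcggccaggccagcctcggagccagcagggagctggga
JUND (chr19:18281573-18281872, minus strand): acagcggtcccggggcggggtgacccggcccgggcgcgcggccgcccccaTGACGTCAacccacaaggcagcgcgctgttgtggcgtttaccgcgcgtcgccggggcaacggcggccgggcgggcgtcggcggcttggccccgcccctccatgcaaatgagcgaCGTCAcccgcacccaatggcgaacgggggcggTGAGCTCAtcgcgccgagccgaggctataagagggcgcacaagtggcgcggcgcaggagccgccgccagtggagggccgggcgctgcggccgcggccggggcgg
EGR1 (chr5:138465229-138465528, plus strand): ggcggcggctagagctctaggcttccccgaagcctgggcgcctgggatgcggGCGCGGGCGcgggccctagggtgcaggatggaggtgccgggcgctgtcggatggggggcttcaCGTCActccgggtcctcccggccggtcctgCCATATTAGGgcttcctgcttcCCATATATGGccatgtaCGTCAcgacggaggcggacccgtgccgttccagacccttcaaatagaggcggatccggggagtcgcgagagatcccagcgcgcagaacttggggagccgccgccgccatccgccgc

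The motifs searched on both strands were the cAMP response element (CRE) TGACGTCA, its core TGACG, the AP-1 site TGANTCA, the looser bZIP site TGANNTCA, the EGR1 site GCGNGGGCG and the SRF-binding CArG box. The core lies inside the full CRE, and the full CRE is also a TGANNTCA match. RefSeq windows were on hand for 8 of the 9 genes, FOSL1 having none in the table used, and NR4A1 had 2. The TGACG core was found in the windows of 7 of these 8 genes and in 24.55% of all 35116 windows. JUN held the match TGACATCA, which starts 67 bases before the transcription start and is a known JUN and ATF2 binding site, and JUND held the full CRE 200 bases before its start. The TGANNTCA site was present in 11.51% of all windows, the full CRE in 1.85%. EGR1 was the 1 member with a CArG box inside its window, and it held 2, starting 105 and 83 bases before the start, against 1.29% of all windows with any. EGR1 also held the 1 match to its own site, which 9.43% of windows hold. FOSL2 held the 1 AP-1 site, TGACTCA, just downstream of its start, a motif in 7.71% of windows. In the FOS window the single match was a TGACG core 64 bases before the start. No motif matched in either NR4A1 window. These windows begin at 52022582 and 52037465 on chromosome 12, in a gene that ends at 52059503, and the rest of the gene was not searched. These matches describe letters in a window and were not related to the array values by a test.

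Signals are MAS5 intensities on a linear scale, and probe sets differ in brightness, so signals are compared between arrays and never between genes. The median of all values, 61.4 signal units, served as a floor below which signals were raised to it. A gene took the values of its brightest probe set, and counted as measured if that exceeded the floor on at least 1 array. That held for 8 of the 9 members and for 12351 genes in all. FOSB lay below the floor on every array. A difference is the log2 of the treated array's signal over the control's, and where 1 array was at the floor the value is a bound. Of the 23 member probe sets, 19 exceeded the floor somewhere and 13 on all 3 arrays.

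At 12 h 1 of the 8 measured members, NR4A1, was 2-fold or more apart from the control, where 0.883% of all measured genes were. At 24 h no member was, against 1.23% of measured genes, and for 24 h over 12 h none was, against 0.324%. A single call among 8 genes is given against that background and is not taken as particular to them. The members split evenly at 12 h, 4 higher and 4 lower with a median of -0.07, and at 24 h 3 were higher and 5 lower with a median of -0.09. The medians of all measured genes were 0.00 at both times. Both comparisons use the same control array, so that a gene lying off in the control alone would differ at both times.

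**Figure D1:**
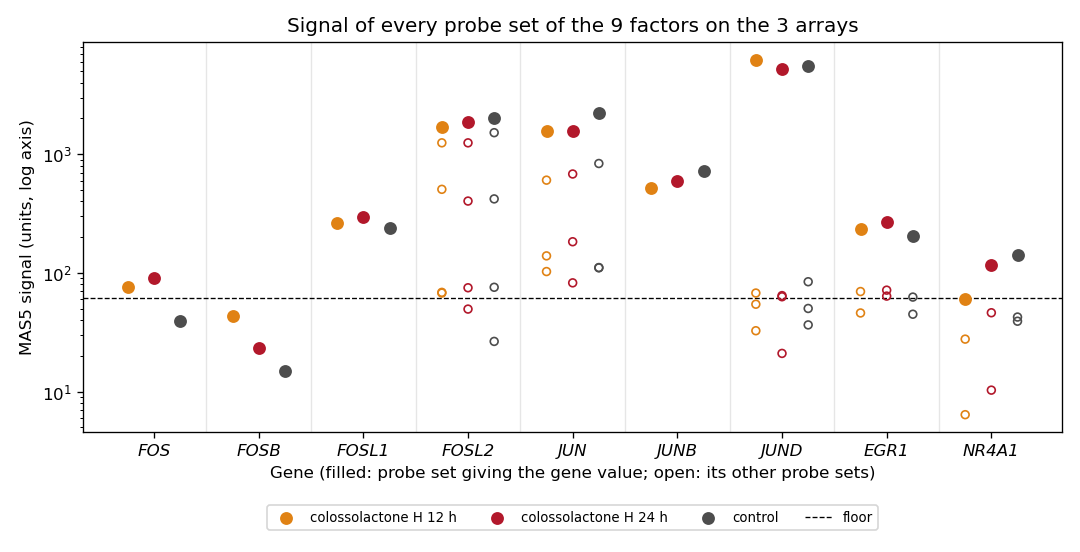
MAS5 signal (log axis) of every probe set of the 9 factors on the 12 h, 24 h and control arrays. Filled points are the probe set that gives the gene value, open points the others, and the dashed line is the floor of 61.4; FOSB and the smaller NR4A1 probe sets lie under it on all 3 arrays.

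NR4A1 (Entrez gene 3164, chromosome 12, 52022832 to 52059503) encodes Nur77, a nuclear receptor induced by mitogens and by death signals. Its brightest probe set read 60.8 units at 12 h, 116.8 at 24 h and 142.1 in the control. The 12 h value was thus just below the floor, and NR4A1 was at least 2.31-fold lower there than in the control, while at 24 h it was 1.22-fold lower, a log2 difference of -0.28. Differences as large as that at 12 h were found in 0.372% of measured genes, and ones as large as that at 24 h in 35.3%. The 24 h signal was at least 1.90-fold that at 12 h. The other NR4A1 probe sets were below the floor on every array, with 27.7, 46.2 and 42.5 units for one and 6.4, 10.3 and 39.2 for the other at 12 h, at 24 h and in the control. In each of the 3 the 12 h array gave the lowest signal, but below the floor such values carry no order. The brightest probe set is of the _x_at kind, which may also bind related transcripts.

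Of the relatives of NR4A1, NR4A2 had another order of arrays, and NR4A3 could not show a fall from the control. NR4A2 (Nurr1) read 236.6 units at 12 h, 184.8 at 24 h and 174.5 in the control, so its highest signal was at 12 h, where that of NR4A1 was lowest. A second NR4A2 probe set gave 156.3 and 173 units after 12 h and 24 h, against 114.6 in the control. NR4A3 (NOR-1) was below the floor at 12 h and in the control, so a fall at 12 h could not be read. It had 93.6 units at 24 h, at least 1.52-fold above both of these arrays, and like NR4A1 was higher at 24 h than at 12 h. Its other probe sets stayed below the floor throughout.

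JUN (Entrez gene 3725, chromosome 1, 58780791 to 58784047) encodes c-Jun, the main partner of FOS proteins and the target of the JNK kinases. On its brightest probe set it had 1577 units at 12 h and 1571 at 24 h, against 2209 in the control, 1.40-fold and 1.41-fold lower. The next brightest gave 604.4 and 681 units after 12 h and 24 h, against 834.7 in the control, or -0.47 and -0.29 as log2 differences. These probe sets put both treated arrays below the control. A dimmer one, however, gave 139.2 and 183.1 units on the treated arrays, against 110.4 in the control, a difference of 0.33 at 12 h and 0.73 at 24 h. The remaining one gave 102.7 and 82.5 units, against 111 in the control, or -0.11 and -0.43. It is the only JUN probe set specific by its name, the others being of the _x_at or _s_at kind, which may also bind other transcripts. The probe sets of JUN thus spanned 0.82 on the log2 scale at 12 h and 1.22 at 24 h. The median span over the 5636 genes with 2 or more probe sets above the floor on all arrays was 0.30 and 0.35. Of its 4 probe sets 3 were lower than the control at both times, and the median of their differences was -0.29 at 12 h and -0.36 at 24 h.

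JUNB (Entrez gene 3726, chromosome 19, 12791486 to 12793315) encodes a JUN family member that often restrains c-Jun. It was read by 1 probe set, with 522.3 units at 12 h, 591.8 at 24 h and 715.8 in the control. Both treated arrays lay below the control, by -0.45 and -0.27. The sign held under each of the 9 processing alternatives. With 1 probe set above every floor tried, these could hardly alter the difference, so the kept sign adds no support. Differences of that size or more were found in 12.6% of measured genes at 12 h and 36.6% at 24 h.

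JUND (Entrez gene 3727, chromosome 19, 18279694 to 18281622) had signals of 6196 units at 12 h, 5256 at 24 h and 5544 in the control. Its difference from the control was 0.16 at 12 h and -0.08 at 24 h, differences that 52.8% and 77.2% of measured genes matched or exceeded. Its other probe sets were near or under the floor, between 21 and 84.3 units. By their brightest probe sets 2 of the 3 JUN family members were lower at 12 h and all 3 at 24 h. Of all measured genes 48.4% were lower at 12 h and 49.9% at 24 h, so the count is not taken as particular to the family.

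**Figure D2:**
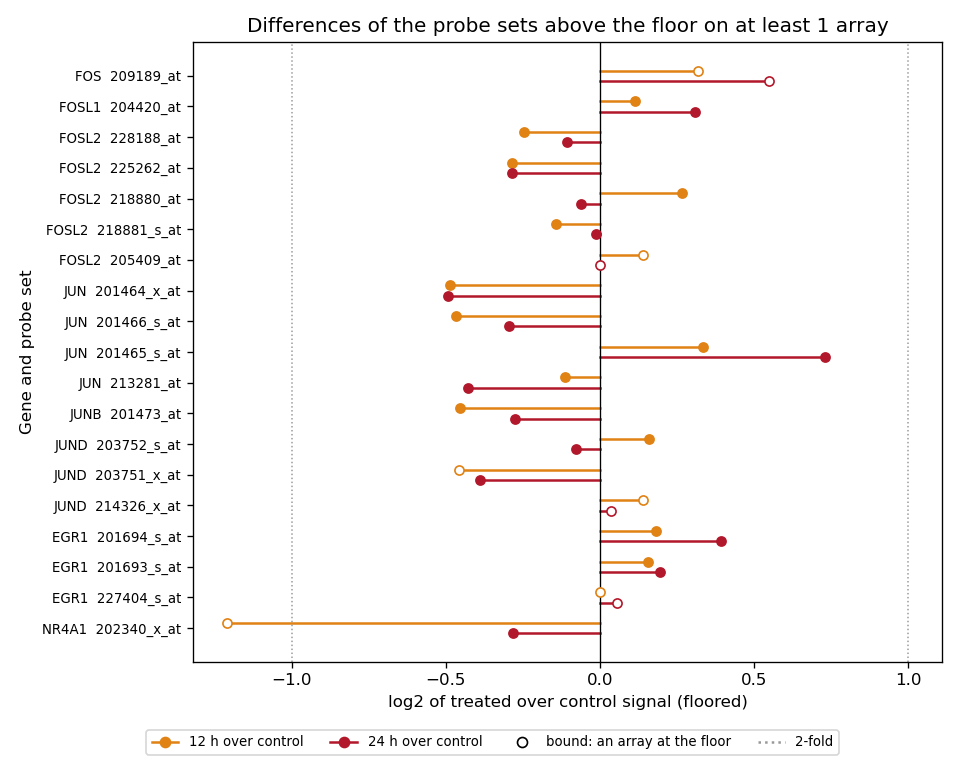
Log2 difference from the control at 12 h and at 24 h for each of the 19 member probe sets above the floor on at least 1 array; open points are bounds and dotted lines mark 2-fold. The JUN probe sets point both ways, from -0.49 to 0.73 at 24 h, and only NR4A1 at 12 h passes the 2-fold line.

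FOS (Entrez gene 2353, chromosome 14, 75278828 to 75282230) encodes c-Fos, the unstable FOS protein made in the first wave after a stimulus. Its 1 probe set read 76.6 units at 12 h and 89.9 at 24 h, against 39.4 in the control, which is under the floor. FOS was therefore at least 1.25-fold higher at 12 h and at least 1.46-fold higher at 24 h. Its size depends on the floor: a floor at the 25th percentile gave differences of 0.96 and 1.19, the second of which passes 2-fold. A difference of 0.55 or more either way was found in 10.6% of all measured genes at 24 h, and in 18.7% of those in the dimmest of the 4 signal bands.

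FOSB (Entrez gene 2354, chromosome 19, 45467996 to 45475179), a stimulus-induced FOS protein, had 43.7 units at 12 h, 23.4 at 24 h and 14.8 in the control, all below the floor, and no fold is given.

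FOSL1 (Entrez gene 8061, chromosome 11, 65892049 to 65900545) encodes FRA-1, a stable FOS protein abundant in many carcinoma lines. It read 260.9 units at 12 h, 298.2 at 24 h and 240.9 in the control, so that the treated arrays were 1.08-fold and 1.24-fold higher. Differences as large were found in 64.6% and 31.8% of measured genes.

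FOSL2 (Entrez gene 2355, chromosome 2, 28392858 to 28417317) encodes FRA-2 and had 5 probe sets. The brightest gave 1685 units at 12 h, 1854 at 24 h and 1999 in the control, or -0.25 and -0.11. The next gave 1246 units on each treated array, against 1517 in the control, or -0.28 at both times. One dimmer probe set, however, read 505.9 and 402.9 units after 12 h and 24 h, against 420.1 in the control, and so was higher at 12 h and lower at 24 h. The median of the differences of its 5 probe sets was -0.14 at 12 h and -0.06 at 24 h. The sign was unlike between probe sets at 12 h in 49.6% of the 5636 genes with several, and at 24 h in 50.4%, so such discord was common on these arrays.

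EGR1 (Entrez gene 1958, chromosome 5, 138465479 to 138469303) encodes a zinc finger factor induced through SRF and the MAP kinase cascade. Its brightest probe set had 233.5 units at 12 h and 270.1 at 24 h, against 205.7 in the control, 1.14-fold and 1.31-fold higher. A dimmer one near the floor read 69.7 and 71.6 units on the treated arrays and 62.6 in the control, and the last one passed the floor only at 24 h, with 63.8 units. No EGR1 probe set was lower than the control on either treated array. Its differences were matched or exceeded by 47.6% of measured genes at 12 h and 21.9% at 24 h. With the median over probe sets the 24 h difference was 0.19.

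**Figure D3:**
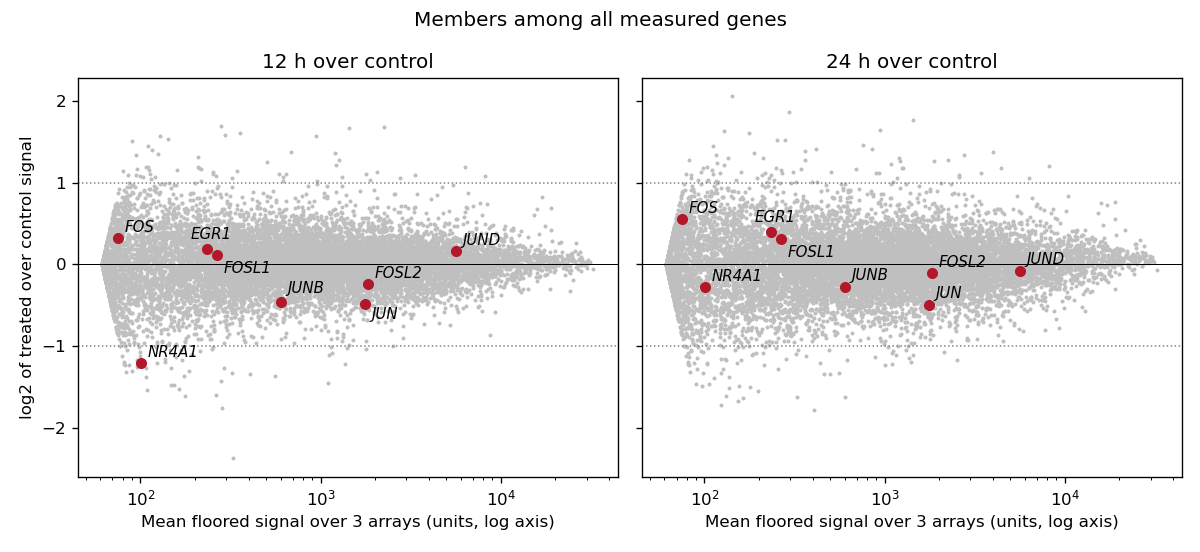
Log2 difference from the control against mean floored signal for all 12351 measured genes (grey) and the 8 measured members (red), at 12 h on the left and 24 h on the right; dotted lines mark 2-fold. NR4A1 at 12 h lies at the lower edge of the cloud, and the other members lie inside it, FOS by its bounds.

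The spread of all genes of like signal shows how far the members stood out. Measured genes were divided into 4 bands of equal size by mean signal, from 61.4 to 238 units in the dimmest. By floored values 7 of the 8 measured members lay within the central 95% of their band at 12 h. All 8 did at 24 h, and 7 did for 24 h over 12 h. FOS is counted inside at 12 h and 24 h by its bounds of 0.32 and 0.55, which cannot place it. Unfloored, its differences were 0.96 and 1.19, where the range of its band, from floored signals, ended at 0.81 and 0.82. NR4A1 was the exception at 12 h and for 24 h over 12 h, and both exceptions rest on its 1 reading of 60.8 units on the 12 h array. Its 12 h bound of -1.21 was matched or exceeded in size by 0.81% of genes in the dimmest band, and lay beyond a range of -0.84 to 0.81. For 24 h over 12 h its bound of 0.93 lay beyond -0.74 to 0.71. This range holds real differences as well as noise and is no replicate error.

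The differences between the treated arrays were small. FOS, FOSL1, FOSL2, JUNB, EGR1 and NR4A1 were higher at 24 h than at 12 h, and JUN and JUND were lower. Leaving NR4A1 aside, these 24 h over 12 h values ran from -0.24 for JUND to 0.23 for FOS, with JUN at -0.01. As medians of probe-set differences these values were 0.08 for JUN, -0.10 for JUND and -0.00 for FOSL2.

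Other genes of the pathway came from 6 lists, and no gene value in them was 2-fold or more from the control at either time with the floor at 61.4. With a floor at the 25th percentile 5 genes were, NR4A3 at 2.77, EGR3 at 1.47 and MAPK10 at -1.07 at 24 h, and MMP7 at 1.37 and MAP2K6 at -1.18 at 12 h. At that floor 1531 of all 17855 measured genes were past 2-fold at 12 h and 1642 at 24 h. The 5 are therefore not taken as particular to the lists. The list of bZIP partners of FOS and JUN proteins and related bZIP factors, from the ATF, JDP, BATF, MAF and CREB families, had 10 of 14 members measured. At 12 h 9 were higher and 1 lower with a median of 0.11, and at 24 h 7 were higher and 3 lower with a median of 0.24, or 0.03 when each gene took the median of its probe-set differences. MAFG, a small MAF protein, read 1158 units at 12 h, 1483 at 24 h and 1100 in the control. CREM, a cAMP-responsive factor, was at 0.18 and 0.27, but its probe sets ranged from -0.33 to 0.52 at 24 h. BATF2, an AP-1 partner best known from immune cells, was at 0.15 and 0.38. EGR and NR4A relatives had 5 of 7 members measured and medians of -0.16 and 0.08. NAB1, a co-repressor of EGR proteins, was lower on both treated arrays, with 1911 and 1861 units after 12 h and 24 h, against 2406 in the control, while a dim probe set of it gave 224.6 and 204.2 units, against 210.2 in the control.

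Among immediate early genes outside the 9, 26 of 31 were measured, 10 higher and 16 lower at each time, and the medians were -0.17 at 12 h and -0.11 at 24 h. CCN1, a secreted matricellular protein and target of SRF and YAP, had 6708 units at 12 h, 8221 at 24 h and 12208 in the control. Its second probe set gave 1967 and 2294 units on the treated arrays, against 4055 in the control, a difference of -1.04 at 12 h, so both put the treated arrays below the control. CCN2, a related protein read by 1 probe set, had 975.4 and 1070 units after 12 h and 24 h, against 1829 in the control, and thus followed the same order of arrays as CCN1. ZFP36L2, an mRNA decay factor of immediate early transcripts, was at -0.49 and -0.65.

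Kinases and transcription factors that act on FOS, JUN and EGR1 had 23 of 27 members measured, and their median was -0.04 at 12 h, against -0.08 at 24 h. At 12 h 11 were higher and 12 lower, and at 24 h 10 were higher and 13 lower. RPS6KA2, a kinase downstream of ERK, read 146 units at 12 h, 183.7 at 24 h and 102.7 in the control, though its second probe set was at 0.31 and -0.04. MAP2K2, the ERK kinase MEK2, was at 0.54 and 0.49, and its dimmer probe set at -0.35 and 0.13. MAPK10, the neuronal JNK3, was dim, at -0.33 at 12 h, and reached the floor at 24 h, where -0.99 is a bound.

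Genes often given as AP-1 targets had 22 of 30 members measured. At 12 h 9 were higher and 13 lower, and at 24 h 8 were higher and 13 lower, with medians of -0.05 and -0.15. IVL, the keratinocyte envelope protein involucrin, had 990.7 units at 12 h, 1088 at 24 h and 1747 in the control, -0.82 and -0.68 by 1 probe set. VEGFA, the angiogenic growth factor, was higher on both treated arrays, at 5004 and 5283 units, against 3381 in the control, and each of its 4 probe sets was higher at both times. ITGB4, the hemidesmosome integrin subunit, was at -0.37 and -0.81. Decay factors and ubiquitin ligases of these mRNAs and proteins had 13 of 14 measured and medians of -0.11 and -0.04. FBXW7, a ligase for c-Jun, was at -0.37 at both times, but 1 of its probe sets was at 0.28 at 24 h. ITCH, another, was at 0.10 and 0.48, and the median of its probe-set differences was -0.16 and -0.15.

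**Figure D4:**
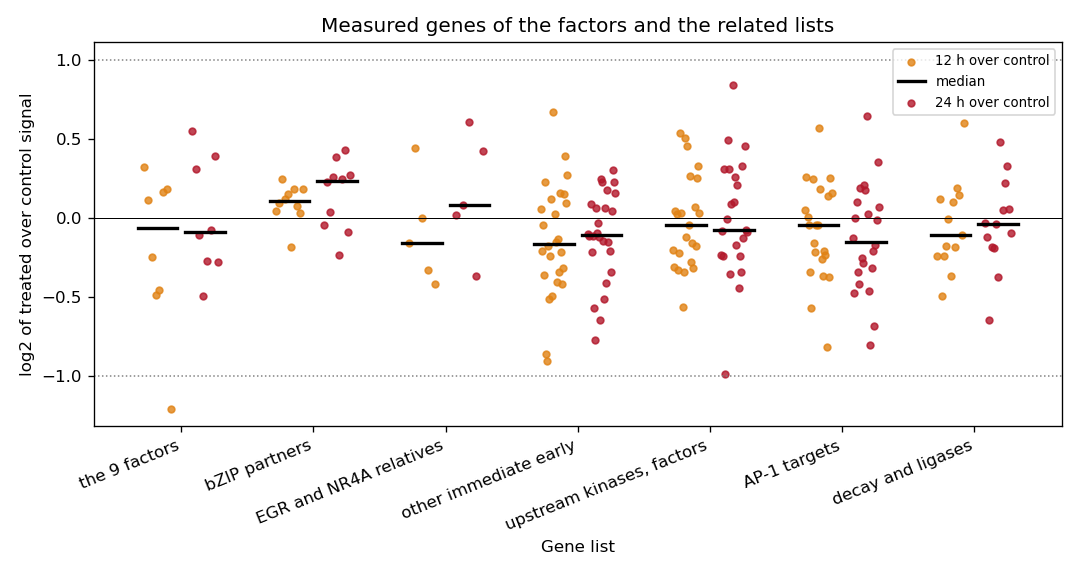
Log2 difference from the control of each measured gene at 12 h and at 24 h, for the 8 measured factors and 6 related lists; black bars are medians and dotted lines mark 2-fold. List medians lie between -0.17 and 0.24, and NR4A1 at 12 h is the single point beyond 2-fold.

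The rule for naming genes of like pattern asked for a member above the floor on all arrays and 1.5-fold or more from the control, and 0 members met it. As to the arrays, 9 of 10 epithelial markers were measured, with KRT18, CDH1 and EPCAM the brightest. Of these 9, NAPSA passed the floor at 24 h only, at 74.9 units. NKX2-1, the lung lineage factor, was below the floor on each array. Of 5 blood cell markers on the arrays the leukocyte genes PTPRC, CD3E, CD14 and LYZ were below the floor on each, and HBB, a haemoglobin gene of red cells, passed it at 12 h only, at 90.6 units. Of 6 fibroblast and endothelial markers 3 were measured, COL1A1, COL3A1 and PECAM1, all lower on both treated arrays than in the control. Their list summed to 1521 and 1246 units at 12 h and 24 h, against 1824 in the control. For ACTB, 3′ signal over 5′ signal, which reads RNA integrity, was 5.38 at 12 h and 6.55 at 24 h, against 4.95 in the control. For GAPDH it was 1.25 and 1.24, against 1.21 in the control. The part of these in the differences above was not tested.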

How the data were processed

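Biotinylated cRNA from 6 μg of total RNA was hybridised to Affymetrix HG-U133 Plus 2.0 arrays, per the labels. The deposited values are linear signal intensity made by the authors with MAS5, per the submitters' processing notes; its version and settings are not given in the sources used here. No column of detection calls was used. The mean signal trimmed by 2% at each end was 499.9 on every array, and the medians were 60.6, 61.8 and 61.7 for 12 h, 24 h and control. No further scaling was applied.

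Of 54675 probe sets, 41097 had 1 gene in the platform annotation, 1801 several and 11777 none; 41043 of the first kind matched a RefSeq gene by Entrez identifier. Positions and promoter windows are RefSeq's, on GRCh38.p14. Protein sequences were not used here. The floor was the 50th percentile of all values, and the call threshold was 2-fold. With 1 array per group no test was run. The calling step was tested on simulated data. Changes were planted there only in genes well above the floor, so calls at the floor, such as that of NR4A1, were not tested. The 9 members, the lists and the naming rule (for each list, members past 2-fold in either comparison with the control and the 3 with the largest mean difference) were chosen with earlier results of these data known. List genes outside that rule are marked as such, or are given only because they passed 2-fold under a processing alternative, as with EGR3, MMP7, MAP2K6 and EZR. Alternatives were 3 scalings, 3 floors and 2 rules for the probe set of a gene, plus 1 chosen after seeing the data, the median of the log2 differences of a gene's probe sets above the floor, with limma 3.58.1 in R 4.3.3 for quantile and cyclic loess scaling, and Python 3.11.15 for the rest.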

Additional observations from a re-analysis of the deposited data

Results flagged for a closer look

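JUND stood on opposite sides of the control at the treated times, at 0.16 at 12 h and -0.08 at 24 h. The difference of 24 h over 12 h was -0.24 on the log2 scale, and with 1 array per group it was not tested. A difference of that size or more separated the treated arrays in 25.04% of measured genes, and in 8.84% of those in the brightest of the 4 signal bands, where JUND lies. The median of the differences of its 3 probe sets above the floor was 0.14 at 12 h and -0.08 at 24 h.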

How the results depend on the processing

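No paired analysis was possible because each group held 1 array. A value counted as moved when it shifted by more than 0.18, the robust SD of 24 h over 12 h across measured genes, and a count when it shifted by over 1.5 times. Median centring, quantile and cyclic loess scaling moved none of the results listed here. The only single-gene value past 2-fold, NR4A1 at 12 h, kept its sign under the 6 alternatives that gave one. All of these read the same NR4A1 probe set, so they could hardly have changed it. Other floors moved 18 counts or list medians and 9 single-gene values, and other rules for the probe set moved 7 and 42. With the floor at the 25th percentile (12.5 units) members past 2-fold were 2 at 12 h and 1 at 24 h, and all genes past it were 1531 at 12 h, 1642 at 24 h and 1489 for 24 h over 12 h. With no floor and a pseudocount of 1 they were 2 and 1 members and 3411, 3516 and 3468 genes. With the floor at the 65th percentile (192.4 units) 0 members and 44, 63 and 6 genes were past it, and NR4A1 was no longer measured. With the median over probe sets or transcript-specific probe sets 0 members were past 2-fold at 12 h, because NR4A1 then had no measured value, and with the median over probe sets 129 genes were past it for 24 h over 12 h. The EGR and NR4A list, of 5 measured genes, moved to -0.19 at 24 h and -0.17 for 24 h over 12 h with the higher floor, to 0.51 and 0.50 for 24 h over 12 h with the lower floor and with none, and to 0.42 at 24 h and 0.61 for 24 h over 12 h with transcript-specific probe sets. The bZIP partner median at 24 h was 0.0023 with the median over probe sets and 0.027 with the median of probe-set differences, an alternative chosen after seeing the data. The median over probe sets is of signal levels and so reads the probe sets of middle brightness: it put JUN at 0.21 at 24 h, FOSL2 at 0.27 at 12 h and JUND at -0.08 at 12 h, where the median of differences gave -0.36, -0.14 and 0.14. It also put EZR, an AP-1 target, at 1.02 at 24 h. In all 191 list medians and counts and 573 single-gene values stayed within those limits, and 51 single-gene values moved. Signal near the floor limits what can be said of FOS, FOSB and NR4A1.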

Other observations

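Matrix metalloproteinase genes, well-known AP-1 targets in invasive tumour cells, were chosen for mention after their values were seen, and each had 1 probe set. MMP1 read 117.1 units at 12 h, 103.5 at 24 h and 113.1 in the control, and MMP9 read 175.9, 194.5 and 181.7. MMP3 had 224.5 units at 12 h and 134.8 at 24 h, against 187.9 in the control. MMP10 was above the floor only in the control, at 77.9 units. PLAU, the urokinase protease, also seen first, had 2014 units at 12 h and 2241 at 24 h, against 2990 in the control, while its receptor gene PLAUR had 946.4 and 909.7 units, against 796.8 in the control.

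KLF2, a zinc finger factor of the immediate early kind named after its values were seen, had 237.4 units at 12 h and 177 at 24 h, against 149.3 in the control. SRF, the factor that binds CArG boxes such as those of EGR1, likewise seen first, had 486.2 units at 12 h and 477.9 at 24 h, against 605.9 in the control.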
